A study of Mus musculus with 36 samples.

Results

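The litters lot 8 and lot 11 of transformed mouse astrocytes were compared gene by gene. The comparison took 16 of the 36 libraries of the study and 4 of its 10 lines: the female and the male line of lot 8 (4 libraries each), and the female and the male line of lot 11 (4 libraries each). All 4 lines were Nf1-/- DNp53 astrocytes, that is, mouse astrocytes that lack Nf1 and carry a dominant-negative form of p53, and all were grown in DMEM/F12 with fetal bovine serum and antibiotics. Lot 8 and lot 11 came from separate litters, per the design text, and the labels also give the lot as the batch. A difference of litter, of batch and of single lines therefore cannot be told apart, because each litter gave 1 line per sex. The age of the animals, and whether each library had its own culture, are not given in the sources used here. P-values below measure only the spread between the libraries of these 4 lines. Loss of Nf1 and the altered p53 are shared by both sides of every comparison, and lines without them were not analysed here.

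The Nf1 product, neurofibromin, is a GTPase-activating protein that switches Ras off, and Ras signals through the ERK kinases to transcription factors such as Etv4 and Fosl1. A dominant-negative p53 blocks the p53 made by the cell's own gene. Contractile genes of smooth muscle, such as Acta2 and Tagln, are driven by serum response factor and its actin-regulated cofactors, and Ccn2 is a classical target of the YAP and TEAD transcription factors. Cells held in serum on a stiff surface are known to use both programmes.

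RNA was measured by BRB-seq, which reads the 3' ends of polyadenylated transcripts and marks each sample by a barcode. Library totals were 4358098 to 5713817 counts in lot 8 and 5566314 to 7445520 counts in lot 11, and 12654 to 13405 genes were detected in lot 8 libraries, against 13197 to 13812 in lot 11 libraries. At these totals 3 counts correspond to 0.525 to 0.688 CPM (counts relative to the library total) in lot 8 and to 0.403 to 0.539 CPM in lot 11. The sum over Y-linked genes lay between 0.172 and 1.26 CPM in the 8 libraries labelled female and between 18.1 and 61.8 CPM in the 8 labelled male, so each library carried the signal of its label, although Xist had 1 count in lot 8 female replicate 3 and 13 to 48 in the other female libraries. Mitochondrial mRNA took the smallest share of counts in the library numbered 4 of each line, at 0.251 to 0.333%, against up to 0.641% in lot 8 and 0.671% in lot 11. Nf1 averaged 2.22 ± 1.76 CPM in the female and 1.40 ± 0.47 CPM in the male line of lot 8, against 2.03 ± 0.83 and 1.97 ± 1.18 CPM in those of lot 11 (SD, n = 4 each). The levels of Nf1 and of Trp53 gave adjusted p of 0.900 and 0.938 between the litters (edgeR), and counts at the 3' end cannot reveal a deletion further upstream in Nf1.

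Markers of the labelled cell type were mostly low. Of 12 astrocyte markers 6 were over 1 CPM, led by the intermediate filament gene Vim, and of 9 neural progenitor markers 4 were, led by Nes. Neural progenitor markers summed to 79.9 to 191 CPM in lot 8 and 126 to 241 CPM in lot 11. All 4 tested members were lower in lot 8 at an unadjusted p under 0.05 (edgeR; median log2 difference -0.61), a p that 21.1% of all genes tested reached. In the sexes taken singly, 0 fell in the female lines (median -0.32) and 3 fell in the male lines (median -1.09). The litter difference was unlike in the sexes for 2 of them. Nes alone met the rule for calls used for all genes (adjusted p under 0.05, both lot 8 lines on the same side of both lot 11 lines). Under other settings, here and below, the call of a single gene was judged by adjusted p and sign. The order of the line means was not checked again for it. The call of Nes (adjusted p 0.0394, edgeR) was lost without any 1 of 10 libraries (up to 0.0931; kept without lot 8 female replicate 4, lot 8 male replicates 2 and 4, and lot 11 female replicate 3 and male replicates 2 and 3), without the libraries numbered 4 (0.0835), on all 36 libraries (0.185) and in limma voom with a random line block (0.0846). Of the oligodendrocyte list Cspg4 rose (3.34, adjusted p 0.000396), and of the pericyte list Pdgfrb fell (-1.19, adjusted p 0.0133), a call lost without the libraries numbered 4 (0.0928), on all 36 libraries (0.0761) and in limma voom (0.0878). Summed levels of astrocyte markers overlapped between the litters, at 3561 to 5153 CPM in lot 8 and 3858 to 4601 CPM in lot 11, and 0 of 6 tested members rose and 1 fell. That member was the glutamate transporter Slc1a3, at 0 to 4.36 CPM in lot 8 libraries and 1.51 to 8.45 CPM in lot 11 libraries (adjusted p 0.0293, edgeR). Its call was lost without lot 11 male replicate 1, without lot 8 male replicate 1 or 3, and without any 1 of the 4 lot 8 female libraries, with an adjusted p of up to 0.0639, and it was also lost with a replicate block (0.0541), on all 36 libraries (0.220) and in limma voom with a random line block (0.224). Fibroblast and meningeal markers, 6 of 10 over 1 CPM and led by Col1a2, summed to 400.2 to 619.7 CPM in lot 8 against 264 to 472 CPM in lot 11. Of 5 tested members 1 rose, Col1a2, and 2 fell, Col1a1 and Prrx1, with a median log2 difference of -0.57. Epithelial markers, 2 of 9 over 1 CPM and led by Krt19, summed to 29.0 to 86.4 CPM in lot 8 and 3.11 to 51.7 CPM in lot 11. Of their 2 tested members 0 met that rule, with medians of 2.83 in the female and -1.48 in the male lines. Of 12 microglia and macrophage markers 1 was over 1 CPM, and Itgam, Adgre1, Tyrobp, C1qa and Trem2 were at 0 in all 16 libraries. In bulk RNA, fewer cells of a type and less RNA per cell cannot be told apart, and the part of these markers in the results below was not tested.

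The litters differed in 752 genes. Counts of 10719 genes were fitted with edgeR's quasi-likelihood method, with sex as a block, and a gene was kept when its Benjamini-Hochberg adjusted p was under 0.05 and the means of both lot 8 lines lay on the same side of both lot 11 lines. By that rule 367 genes (3.42% of those tested) were higher and 385 (3.59%) were lower in lot 8, or 752 in all (7.02%). A further 113 genes passed the threshold without that arrangement, for a total of 865 (8.07%). The median size of the log2 difference among kept genes was 0.66, and a size over 2 was reached by 29 higher and 68 lower genes. The 8 libraries of lot 8 did not overlap the 8 of lot 11 in 73 higher (0.681%) and 85 lower genes (0.793%). Just inside the threshold stood Abr, Neurl2 and Rps19-ps6, at adjusted p of 0.0490, 0.0498 and 0.0498. Herc3 and Sptssa stood just outside it, both at 0.0503.

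Without the 4 libraries numbered 4, 296 genes were higher and 261 lower. These counts rest on libraries, not on litters. With the libraries of each line summed, so that 4 values with 1 residual degree of freedom remained, 4 genes were higher and 5 lower, and 817 of 13282 genes had an unadjusted p under 0.05. The 9 genes were Rasgrf1, S100a7a, Gm28438 and Ftl1-ps1 (higher), and Rps3a1, Cd34, Gnai1, mt-Nd3 and Rps13-ps2 (lower). Of these, Gm28438, Ftl1-ps1, Rps3a1, mt-Nd3 and Rps13-ps2 have near-identical copies, described further on. With the 10 line sums of all lots, 1 gene was higher, Gm28438, and 0 were lower (edgeR, 525 of 14504 genes at an unadjusted p under 0.05). A fit of all 36 libraries gave 219 higher and 241 lower genes. In the same 4 lines, line means set the litters apart in 3798 genes (35.4%) and the sexes apart in 3764 genes (35.1%).

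**Figure D1:**
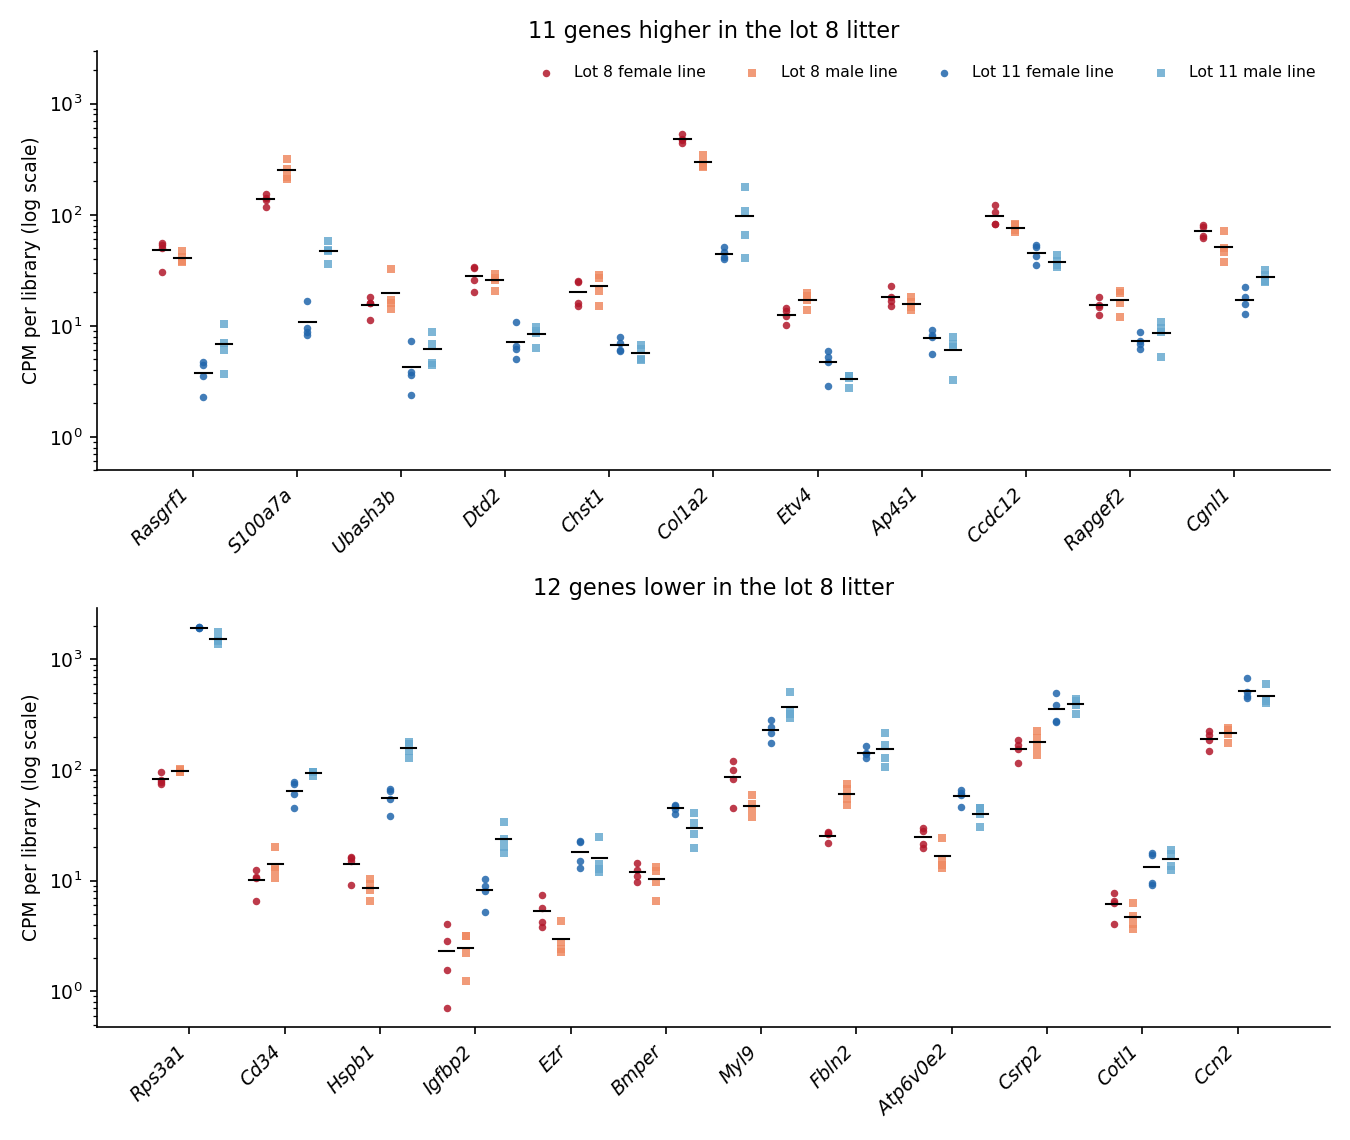
CPM per library (log scale) of 11 genes named as higher (top) and the 12 named as lower (bottom) in lot 8; each point is 1 library, coloured by line, with lot 8 left of lot 11. In none of the 23 genes do the 8 lot 8 libraries overlap the 8 lot 11 libraries, which was part of the rule that chose them.

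Rasgrf1 came first among the genes that rose in lot 8, when they were ordered by the smaller of the female and the male difference. Rasgrf1 (chromosome 9, 89909908 to 90026977, GRCm38) encodes an exchange factor that loads Ras with GTP, and it had 30.8 to 56.2 CPM in lot 8 libraries (median 44.6) and 2.29 to 10.4 CPM in lot 11 libraries (median 4.56). No lot 11 library came near the lowest of lot 8, and the log2 difference was 3.11 ± 0.23 (SE; adjusted p 5.68e-09, edgeR), at 3.66 in the female and 2.60 in the male lines. S100a7a (chromosome 3, 90654017 to 90658669), an S100 calcium-binding protein gene known from inflamed skin, had 119 to 319 CPM in lot 8 (median 181) and 8.21 to 58.1 CPM in lot 11 (median 26.2). Its log2 difference was 2.97 ± 0.20 (SE). The other genes with a role in Ras signalling among these were Rapgef2, which encodes an exchange factor for Rap proteins, at a log2 difference of 1.03 ± 0.17, and Etv4. Etv4 (chromosome 11, 101769742 to 101785371), an ETS transcription factor gene induced by ERK, had 10.2 to 19.7 CPM in lot 8 (median 14.2) and 2.76 to 5.90 CPM in lot 11 (median 3.52), a log2 difference of 1.89 ± 0.21 (SE; adjusted p 2.65e-06). The rest were Ubash3b, a phosphatase gene that dampens receptor signalling (1.75 ± 0.24), Dtd2 (1.79 ± 0.18), the sulfotransferase gene Chst1 (1.80 ± 0.18), Col1a2 (below), the adaptor subunit gene Ap4s1 (1.30 ± 0.18), Ccdc12 (1.06 ± 0.11) and the junction gene Cgnl1 (1.47 ± 0.19).

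Beside these genes, members of gene lists were counted. Over all genes tested, 3.42% rose, 3.59% fell and the median log2 difference was -0.01, and the shares of each list are set against these. Of 14 Ras GTPases and regulators tested, 2 rose (14.3%; Hras and Rras2), 1 fell (7.14%; Mras), and the median log2 difference was -0.10. Mras, which helps to activate RAF kinases, had 5.32 to 10.1 CPM in lot 8 and 12.1 to 27.1 CPM in lot 11, with no overlap, and a log2 difference of -1.20 ± 0.17 (SE). The libraries of Hras overlapped, at 142 to 203 CPM in lot 8 and 119.8 to 147 CPM in lot 11 (log2 difference 0.32 ± 0.08). Rras2 lost its call without any 1 of 7 libraries (lot 8 female replicates 1 and 3, lot 8 male replicate 2, lot 11 female replicates 2 and 4, and lot 11 male replicates 1 and 3), with an adjusted p of up to 0.0808, and in limma voom with a random line block (0.0672).

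Of 18 ERK feedback genes 3 rose (16.7%, against 3.42% of all genes; Etv4, Fosl1 and Dusp5), 1 fell (5.56%, against 3.59%), and the median log2 difference was 0.11. The gene that fell was Dusp1, a phosphatase gene that switches off MAP kinases, at 17.3 to 37.5 CPM in lot 8 and 35.4 to 61.8 CPM in lot 11 (log2 difference -0.80 ± 0.14, adjusted p 0.000779). The call of Dusp1 was lost in the fit of all 36 libraries (0.106). Fosl1, an AP-1 subunit gene, had a log2 difference of 0.35 ± 0.09 and lost its call without lot 8 female replicate 1, lot 8 male replicate 3 or lot 11 female replicate 1 (adjusted p up to 0.0650), on all 36 libraries (0.187) and in limma voom with a random line block (0.0550). Dusp5, an ERK phosphatase gene, had one of 0.63 ± 0.18 and lost its call without lot 8 female replicates 1, 2 or 3, lot 8 male replicates 2 or 3, lot 11 female replicates 1, 2 or 4, or lot 11 male replicate 4 (adjusted p up to 0.0900), on all 36 libraries (0.0962) and in limma voom (0.0803), and without single libraries the list had 1 to 3 higher members. Ccnd1, the cyclin that ERK signalling induces in G1, was counted among the STAT3 targets, and it had 249 to 460 CPM in lot 8 and 176 to 306 CPM in lot 11 (log2 difference 0.64 ± 0.09, adjusted p 6.03e-05).

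Of the smooth muscle contractile genes, 5 of 12 tested members fell in lot 8 (41.7%, against 3.59% of all genes) and 0 rose. The libraries of all 5 did not overlap between the litters, and the median log2 difference of the 12 was -0.83. In the sexes taken singly, 5 fell and 1 rose (Smtn) in the female lines, and 8 fell and 0 rose in the male lines. Acta2, the smooth muscle actin gene, had 1449 to 2374 CPM in lot 8 libraries (median 1799) and 3196 to 5165 CPM in lot 11 libraries (median 4375). Each lot 8 library was below each lot 11 library, and the log2 difference was -1.22 ± 0.11 (SE; adjusted p 1.2e-07, edgeR). Myl9 (chromosome 2, 156775420 to 156781658), a regulatory light chain gene of myosin, had 37.5 to 121 CPM in lot 8 (median 54.3) and 174 to 509 CPM in lot 11 (median 291), a log2 difference of -2.17 ± 0.24. Tagln, an actin-bundling protein gene, had 205 to 519 CPM in lot 8 and 572 to 998 CPM in lot 11 (-1.13 ± 0.14), and the tropomyosin gene Tpm2 had 33.6 to 127 and 176 to 589 CPM (-2.19 ± 0.32). Cnn1, the calponin gene, is the fifth of these and was added after its values were seen: it had 8.60 to 13.6 CPM in lot 8 and 18.1 to 201 CPM in lot 11 (-2.20 ± 0.36, adjusted p 0.000382).

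The litter difference was unlike in the sexes for 6 of the 12 members (50%, against 7.02% of all genes): 3 of the 5 above, and Tpm1, Cald1 and Actg2. Tpm2 differed by -0.97 in the female and -3.47 in the male lines (log2; adjusted p of the difference 3.58e-08, edgeR), and Myl9 by -1.40 in the female and -2.96 in the male lines (0.00165). Cnn1 went the other way, at -3.53 in the female and -0.78 in the male lines (1.79e-06). Without any 1 library the list kept 5 to 6 lower and 0 higher members. In the fit of all 36 libraries the call of Cnn1 was lost, at an adjusted p of 0.0558.

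Promoters of 3 of the 5 genes that fell are shown, so that their sequence can be set side by side: the 250 bases before the RefSeq start (GRCm38.p6) of Acta2 (chr19:34255374-34255623, minus strand), Myl9 (chr2:156775214-156775463, plus strand) and Cnn1 (chr9:22099003-22099252, plus strand). Capitals mark the letters GGAATG, the core bound by TEAD factors.
Acta2: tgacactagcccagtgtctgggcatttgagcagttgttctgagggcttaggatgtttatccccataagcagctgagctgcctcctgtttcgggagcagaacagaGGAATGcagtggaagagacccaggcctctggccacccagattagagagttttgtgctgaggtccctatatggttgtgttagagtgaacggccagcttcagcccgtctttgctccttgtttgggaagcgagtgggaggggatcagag
Myl9: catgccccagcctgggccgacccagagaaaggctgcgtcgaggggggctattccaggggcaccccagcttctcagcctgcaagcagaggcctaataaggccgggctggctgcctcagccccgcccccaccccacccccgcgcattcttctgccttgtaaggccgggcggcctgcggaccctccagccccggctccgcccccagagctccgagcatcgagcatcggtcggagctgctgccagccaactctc
Cnn1: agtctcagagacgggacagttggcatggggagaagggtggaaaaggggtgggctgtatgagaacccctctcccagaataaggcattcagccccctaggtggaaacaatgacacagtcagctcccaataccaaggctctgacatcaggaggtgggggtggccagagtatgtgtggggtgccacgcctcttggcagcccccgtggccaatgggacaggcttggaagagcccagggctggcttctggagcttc
Acta2 held 1 GGAATG, beginning 146 bases before the start, and the other windows held none. None of the 3 windows held TGANTCA (AP-1) or TATAAA, on either strand. Over 8100 tested genes with a promoter in the table, GGAATG was in 10.3% of windows of this length, TGANTCA in 3.73% and TATAAA in 5.75%. The RefSeq start of Acta2 lies 217 bases from the GENCODE start, and those of Myl9 and Cnn1 lie 44 and 37 bases from theirs.

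**Figure D2:**
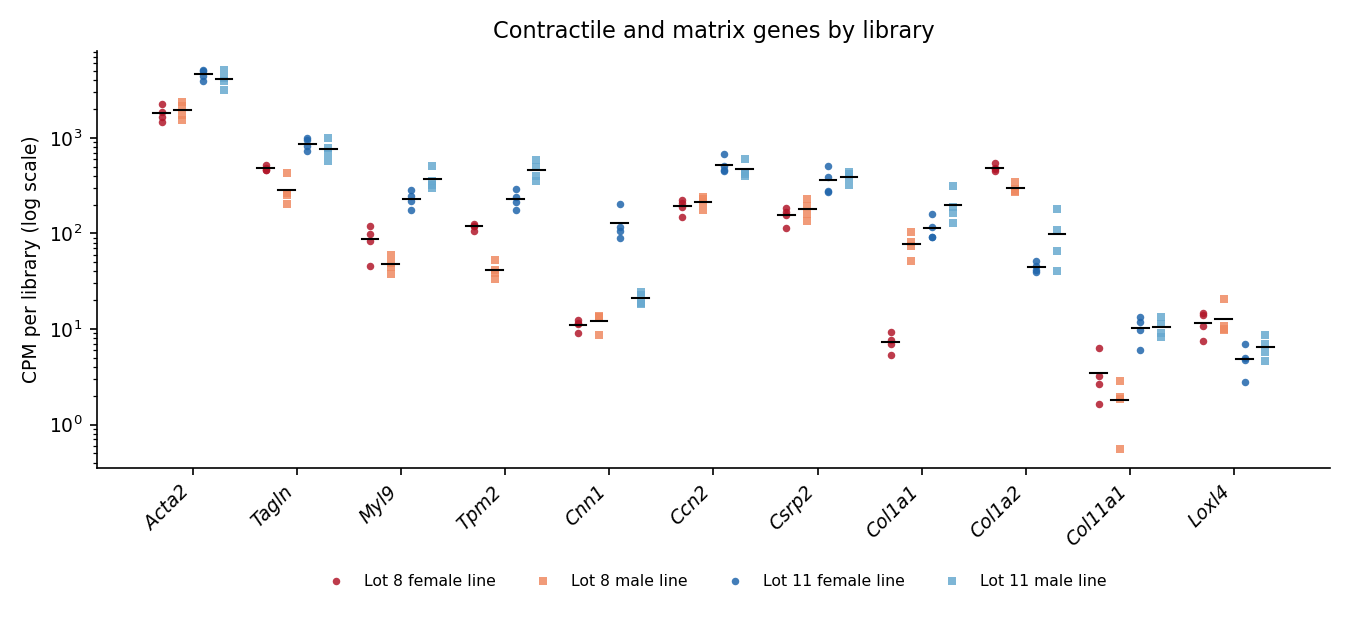
CPM per library (log scale) of contractile and matrix genes; each point is 1 library, coloured by line, lot 8 left of lot 11. Acta2, Tagln, Myl9, Tpm2, Cnn1, Ccn2 and Csrp2 lie lower in all 8 lot 8 libraries than in any lot 11 library, while Col1a2 lies higher in all 8 and Col1a1 and Col11a1 overlap.

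Genes of the matrix did not move as a group. Of 12 fibrillar collagen and lysyl oxidase genes 2 rose (16.7%; Col1a2 and Loxl4), 3 fell (25%; Col1a1, Col11a1 and Col5a2), and the median log2 difference was -0.40. The genes of both chains of type I collagen changed in opposite directions. Col1a2 (chromosome 6, 4504814 to 4541544) had 269.8 to 539 CPM in lot 8 (median 396) and 39.7 to 179 CPM in lot 11 (median 48.5), with no overlap and a log2 difference of 2.50 ± 0.29 (SE; adjusted p 5.62e-06). Col1a1 had 5.37 to 104 CPM in lot 8 (median 30.3) and 90.6 to 311 CPM in lot 11 (median 145), with a log2 difference of -2.46 ± 0.35. The overlap in Col1a1 came from the lot 8 male line, which averaged 77.5 CPM, where the lot 8 female line averaged 7.34 CPM. Col11a1 had 0.557 to 6.39 CPM in lot 8 and 5.95 to 13.4 CPM in lot 11 (-2.0 ± 0.31). Loxl4 rose by 1.12 ± 0.23, a call lost in the fit of all 36 libraries (adjusted p 0.131). Timp1, which inhibits matrix proteases, had 2328 to 3581 CPM in lot 8 and 1690.5 to 2560 CPM in lot 11 (0.63 ± 0.09, adjusted p 5.17e-05). Fbln2, a matrix gene of the fibulin family, fell to 21.7 to 75.0 CPM in lot 8, against 107 to 215 CPM in lot 11 (-1.89 ± 0.18).

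Of 10 YAP-responsive matricellular genes 1 rose (10%), 2 fell (20%), and the median log2 difference was -0.06. Ccn2 (chromosome 10, 24595442 to 24598683), connective tissue growth factor, had 148 to 241 CPM in lot 8 (median 210.0) and 401 to 675 CPM in lot 11 (median 456). No library overlapped, and the log2 difference was -1.29 ± 0.11 (SE; adjusted p 1.2e-07, edgeR). Tgfb2 also fell (-1.15 ± 0.23), while the receptor kinase gene Axl rose (0.45 ± 0.10), a call lost in the fit of all 36 libraries (adjusted p 0.0609). Of 19 TGF-beta pathway genes 1 rose (5.26%), the receptor gene Tgfbr2 (1.37 ± 0.25), and 3 fell (15.8%), the ligand genes Tgfb2, Tgfb3 (-1.17 ± 0.22) and Inhba (-0.81 ± 0.14). The call of Inhba was lost in the fit of all 36 libraries, at an adjusted p of 0.0601. Of 24 secreted growth factor genes 3 rose (12.5%), namely Vegfb (0.63 ± 0.11), Ereg and Nrg1, and 4 fell (16.7%; Fgf5, Vegfc, Bdnf and Igf1), with a median of 0.06. Fgf5 had the greatest fall of these by log2 difference (-3.01 ± 0.48), with 0 counts in all 4 lot 8 female libraries and a mean of 2.82 CPM in the lot 8 male line, against 4.09 and 12.5 CPM in the female and male lines of lot 11. Bdnf fell by 1.01 ± 0.19 on the log2 scale.

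The remaining lower genes of the 12 had varied roles. Cd34 (chromosome 1, 194938819 to 194961279), a surface sialomucin gene best known from blood progenitors and vessels, had 6.54 to 20.3 CPM in lot 8 (median 11.6) and 45.5 to 95.9 CPM in lot 11 (median 83.5). All lot 8 libraries were below all of lot 11, and the difference was alike in the sexes, at -2.68 in the female and -2.72 in the male lines (log2; together -2.70 ± 0.15, adjusted p 5.95e-11). Hspb1 (chromosome 5, 135887919 to 135889563), a small heat shock protein gene that also acts on actin, had 6.55 to 16.2 CPM in lot 8 (median 9.82) and 38.6 to 179 CPM in lot 11 (median 97.9). Its log2 difference was -3.08 ± 0.29 (SE), at -2.01 in the female and -4.18 in the male lines. Genes of the actin cortex were among the others: Ezr, which links actin to the membrane (-2.09 ± 0.23), Csrp2, a LIM protein gene (-1.17 ± 0.13), and Cotl1, an actin-binding protein gene (-1.42 ± 0.21, lost in the fit of all 36 libraries at an adjusted p of 0.0621). The rest were Igfbp2, which binds insulin-like growth factors (-2.58 ± 0.32), Bmper, a BMP-binding protein gene (-1.72 ± 0.17), the proton pump subunit gene Atp6v0e2 (-1.25 ± 0.14) and Rps3a1 (below).

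Some transcription factors of regional brain patterning were lower in lot 8. Of 20 tested 5 fell (25%, against 3.59% of all genes) and 0 rose, with a median log2 difference of -0.46, and the 4 with the smallest p were the homeobox genes Msx1, Otx1, Msx2 and Otx2, with the T-box gene Tbx3 as the fifth. Otx1 had 0 to 3.53 CPM in lot 8 (median 2.45) and 6.91 to 11.9 CPM in lot 11 (median 10.1), with no overlap (-2.23 ± 0.39, adjusted p 0.000783). Msx1 had 0 to 3.90 CPM in lot 8 and 2.45 to 14.1 CPM in lot 11 (-2.29 ± 0.39). Msx2 was at 0 to 2.04 CPM in lot 8 and 2.78 to 9.72 CPM in lot 11 (-2.54 ± 0.49). Otx2 had a mean of 10.3 CPM in the lot 11 male line and under 1 CPM in the other lines, and its call was lost without the 4 libraries numbered 4 (adjusted p 0.0616). Without single libraries 4 to 6 members were lower.

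Genes of the amino acid stress response driven by ATF4 had 4 of 21 tested members lower (19%, against 3.59% of all genes) and 0 higher, with a median log2 difference of -0.28. Ddit3, which encodes the stress factor CHOP, had 8.55 to 17.1 CPM in lot 8 (median 10.3) and 14.7 to 38.6 CPM in lot 11 (median 33.4), so that only lot 11 female replicate 1 lay within the range of lot 8 (-1.42 ± 0.19, adjusted p 2.79e-05). Nupr1, a stress-induced nuclear protein gene, had 36.8 to 109.6 CPM in lot 8 and 104 to 244 CPM in lot 11 (-1.35 ± 0.20). Asns, asparagine synthetase, had 71.3 to 105 and 111 to 139.9 CPM, with no overlap (-0.54 ± 0.09), and Atf3 fell by 1.63 ± 0.41 on the log2 scale. Without single libraries 4 to 6 members were lower.

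Of 17 cell surface adhesion genes 4 fell (23.5%; Cdh11, Vcam1, Itgb1 and Itga11) and 0 rose, with a median of -0.38. Cdh11, a cadherin gene of mesenchymal cells, had 0 to 0.701 CPM in lot 8 and 0.491 to 3.51 CPM in lot 11, close to the floor of 3 counts (-3.34 ± 0.67). Vcam1 had 36.9 to 52.1 CPM in lot 8 and 41.8 to 79.0 CPM in lot 11 (-0.45 ± 0.12), a call lost in the fit of all 36 libraries (adjusted p 0.276). Itgb1, the common beta chain of many integrins, had 223 to 297 and 283 to 518 CPM (-0.38 ± 0.10) and lost its call without lot 11 female replicate 1 (adjusted p 0.0581), on all 36 libraries (0.285) and in limma voom with a random line block (0.0602). Itga11 lost its call without any 1 of the 4 lot 8 female libraries, lot 8 male replicates 1 or 2, lot 11 female replicate 4 or lot 11 male replicate 4 (adjusted p up to 0.0837), without the 4 libraries numbered 4 (0.101) and in limma voom (0.131). Without single libraries 3 to 6 members were lower.

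Among metabolic lists, the glycolysis genes had 3 of 20 members higher (15%, against 3.42% of all genes; Ldha, Aldoa and Gpi1) and 0 lower, with a median log2 difference of 0.11. All 3 lie on chromosome 7, whose genes are described further on. Ldha, lactate dehydrogenase A, had 1666 to 2106 CPM in lot 8 (median 1755) and 1191 to 1812 CPM in lot 11 (median 1334), an overlap, with a log2 difference of 0.40 ± 0.07 (adjusted p 0.000421). The call of Aldoa (0.24 ± 0.06) was lost in the fit of all 36 libraries (0.107). That of Gpi1 (0.26 ± 0.07) was lost without lot 8 female replicates 1 or 4 or lot 11 female replicates 1, 2 or 3 (adjusted p up to 0.0637), and without single libraries 2 to 5 members were higher.

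Of 38 antioxidant and xenobiotic genes 7 rose (18.4%) and 1 fell (2.63%; Prdx2), with a median of 0.04. Prdx6, a peroxidase gene, had 781 to 1068 CPM in lot 8 and 635 to 709.7 CPM in lot 11 with no overlap (0.45 ± 0.05, adjusted p 4.19e-06), though its call was lost in the fit of all 36 libraries (0.222). The glutathione transferase genes Gstm2 and Gstm1 rose by 1.54 ± 0.30 and 0.91 ± 0.19, and their libraries overlapped. Aldh1a1, which makes retinoic acid, had 1.38 to 5.23 CPM in lot 8 and 0 to 1.22 CPM in lot 11 (2.75 ± 0.64). It was also counted among 11 retinoid genes, of which 2 rose (18.2%) and 0 fell. The other was Cyp26b1, which degrades retinoic acid, at 14 to 55.1 CPM in lot 8 (median 31.3) and 4.12 to 15 CPM in lot 11 (median 8.95), a log2 difference of 1.80 ± 0.18 (adjusted p 6.26e-07).

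Of 78 ribosomal protein genes 9 rose (11.5%, against 3.42% of all genes) and 3 fell (3.85%, against 3.59%), with a median of 0.00. The sexes taken singly went opposite ways: in the female lines 25 fell (32.1%, against 4.85%) and 5 rose, with a median of -0.10, and in the male lines 21 rose (26.9%, against 3.68%) and 4 fell, with a median of 0.12. The difference was unlike in the sexes for 22 (28.2%, against 7.02%). Rpl13a and Rpl28, both on chromosome 7, rose by 0.44 ± 0.04 and 0.29 ± 0.05, the call of Rpl28 being lost in the fit of all 36 libraries (adjusted p 0.0508). Of 75 respiratory chain subunit genes 1 rose (1.33%) and 11 fell (14.7%), with a median of -0.05. Cox6c, for instance, had 566 to 643 CPM in lot 8 and 703 to 899.5 CPM in lot 11 (-0.35 ± 0.05), Cox4i1 differed by -0.26 ± 0.04 and Atp5l by -0.53 ± 0.10. The series is titled for NF-kB and STAT3 signalling, and lists of those genes were counted too. Of 13 NF-kB subunits and inhibitors 0 rose and 0 fell, of 16 NF-kB targets 0 rose and 2 fell (12.5%, against 3.59% of all genes; Vcam1 and Ccl5), of 14 IL-6 family and STAT3 genes 0 rose and 0 fell, and of 16 STAT3 targets 2 rose (12.5%, against 3.42%; Timp1 and Ccnd1) and 0 fell. Interferon-stimulated genes had 2 of 10 higher (20%; Trim25 and Ifi35) and 0 lower, and MHC class I genes 0 of 10 in either direction. At an unadjusted p under 0.05 (edgeR) stood 2 NF-kB subunit and inhibitor genes (15.4%), 0 IL-6 family and STAT3 genes and 2 MHC class I genes (20%). Over all genes tested that share was 21.1%. DESeq2 called 0 members of these 3 lists. The sexes taken singly gave other counts for them, described with the female and male lines.

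Some chromosomes held more of the changed genes than others. On chromosome 7, 87 of 736 tested genes (11.8%, against 3.42% over all genes) were higher in lot 8 and 13 were lower. On chromosome 12 the counts were 39 higher (10.7%) and 6 lower of 366. Chromosome 8 ran the other way, with 8 higher and 47 lower (7.81%, against 3.59%) of 602, and chromosomes 10 and 15 had 5 higher and 31 lower of 494, and 7 higher and 27 lower of 417. For genes whose mean log2 CPM was 4 or more, the chromosome 7 median log2 difference reached 0.23 in female and 0.17 in male lines, and on chromosome 12 it was 0.20 in both.

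The shifts on chromosomes 7 and 12 spread along their length. In windows of 20 Mb with at least 10 such genes, all 8 windows of chromosome 7 and all 6 of chromosome 12 had a median above 0 in the female and in the male lines. Window medians were 0.16 to 0.24 on chromosome 7 and 0.17 to 0.26 on chromosome 12. On chromosome 8, 6 of 7 windows were below 0 in both, and on chromosome 10 also 6 of 7. Per library, the chromosome 12 median did not overlap, at 0.055 to 0.135 in lot 8 and -0.207 to 0.023 in lot 11 (log2, relative to each gene's mean over the 16 libraries), while that of chromosome 7 did, at -0.028 to 0.218 in lot 8 and -0.195 to -0.010 in lot 11. Among all 10 lines, the lot 8 male and female lines had the highest and the third-highest chromosome 12 median (0.13 and 0.08), with the lot 6 male line between them (0.10). The lot 8 female line had the highest chromosome 7 median (0.18) and the lot 11 male line the lowest (-0.17), while the lot 8 male line (-0.0029) and the lot 11 female line (-0.030) lay between the others. Genes named above that lie on chromosome 7 are Axl, Nupr1, Ldha, Aldoa, Gpi1, Hras, Rras2, Ccnd1, Rpl13a and Rpl28, and Dtd2, Ap4s1 and Tgfb3 lie on chromosome 12. Of the 12 genes named as lower, Cotl1 lies on chromosome 8, and Csrp2 and Ccn2 lie on chromosome 10. DNA copy number was not measured here.

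**Figure D3:**
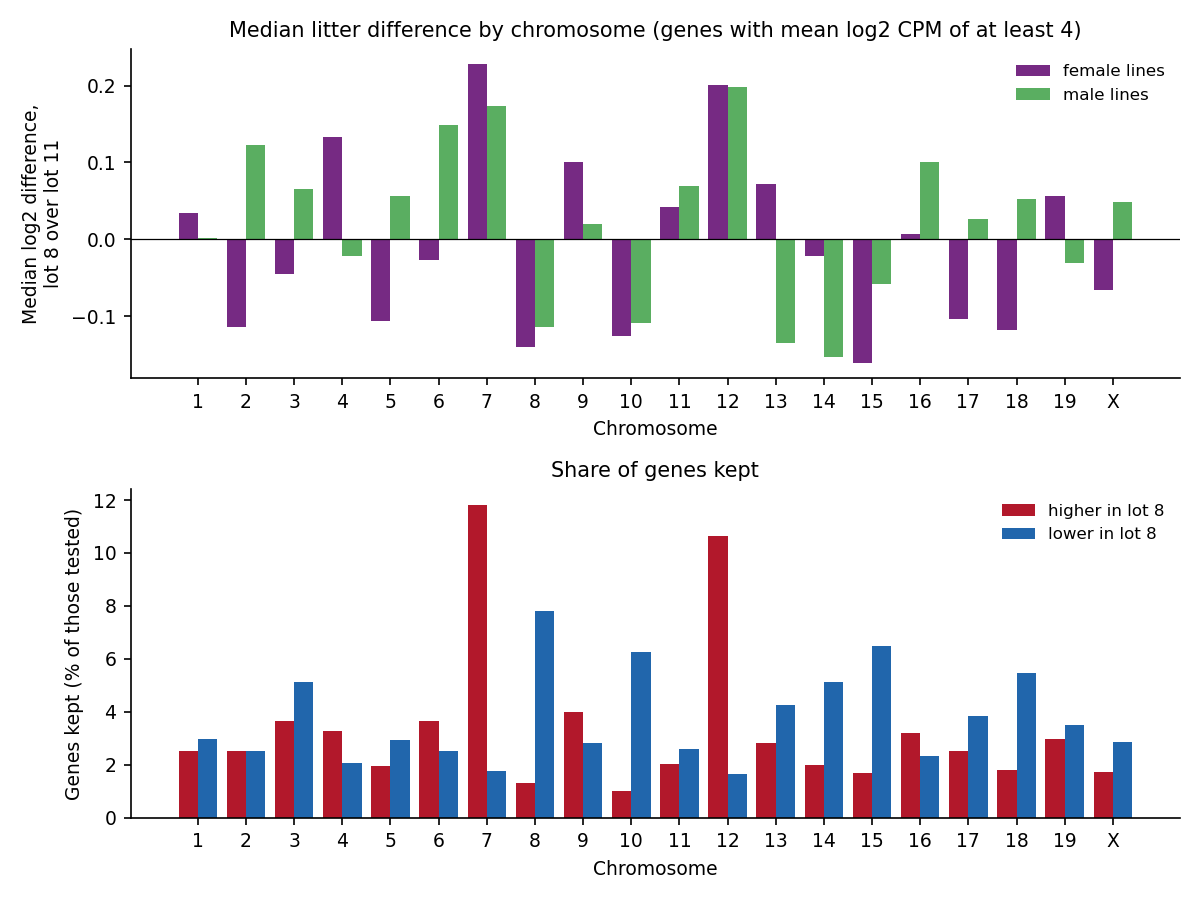
Top: the median log2 difference, lot 8 over lot 11, of each chromosome's genes whose mean log2 CPM was 4 or more, in the female and in the male lines. Bottom: the share of each chromosome's tested genes that was kept as higher or as lower in lot 8. Chromosomes 7 and 12 stand above the others in both panels, with 11.8% and 10.7% of genes higher.

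Several of the greatest differences were in genes with near-identical copies, and reads could have been split between gene and copy; these families were picked after their values were seen. Among protein-coding genes 6.90% were kept, and among processed pseudogenes 9.71% (43 of 443), with no overlap of libraries in 1.31% and 4.74%. Pseudogenes took 3.28 to 4.09% of counts in lot 8 libraries and 3.24 to 3.60% in lot 11 libraries. The pair mt-Nd3 and Gm28438 is shown because a single letter separates them. The mitochondrial gene mt-Nd3, a subunit of complex I (chromosome M, 9459 to 9806, plus strand), and its nuclear copy Gm28438 (chromosome 1, 24612775 to 24613119, minus strand) share 344 of 345 aligned bases. The difference is T3C, counted from 1 at the first base of mt-Nd3, and capitals mark it in the first 60 bases from GENCODE M21 (GRCm38).
mt-Nd3: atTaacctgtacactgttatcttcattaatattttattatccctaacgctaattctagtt
Gm28438: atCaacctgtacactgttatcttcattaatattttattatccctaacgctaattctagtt
In lot 8, mt-Nd3 had 1 count in 41900028, against 406 in 50387674 in lot 11, a ratio of 0.00296 with an exact 95% interval of 7.48e-05 to 0.0166 for counting error. Gm28438 had 391 counts in lot 8 and 21 in lot 11, which made its mean CPM 22.9-fold higher in lot 8. Of the lot 8 libraries, 7 had no mt-Nd3 count, while no lot 11 library was below 5.73 CPM. The sum of gene and copy averaged 9.45 CPM in lot 8 and 8.53 CPM in lot 11, with overlapping libraries (5.05 to 14.2 and 6.19 to 11.8 CPM). Lot 12 lines resembled lot 11, with 5.53 and 6.89 CPM of mt-Nd3, and the lines of lots 6 and 7 had 0 to 0.185 CPM, as in lot 8.

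Ribosomal protein gene Rps3a1 (chromosome 3, 86137940 to 86142702) had the greatest fall of the 12 named, at a log2 difference of -4.25 ± 0.10 (SE; adjusted p 4.77e-18). In CPM of library totals it averaged 90.2 in lot 8 and 1739 in lot 11. Its copies moved the other way: Rps3a3 on chromosome 13 averaged 1484 in lot 8 and 236 in lot 11, and Rps3a2 on chromosome 14 averaged 163 and 44.0. The 3 together averaged 1737 CPM in lot 8 and 2019 CPM in lot 11, a ratio of 0.860, with libraries at 1509 to 1909 and 1903 to 2167 CPM. The copies share 99.5% (Rps3a2) and 98.9% (Rps3a3) of their aligned bases with Rps3a1. Rplp0, the acidic ribosomal stalk protein gene, averaged 4092 CPM in lot 8 and 7565 CPM in lot 11, and its chromosome 8 copy Gm8730 averaged 2619 and 1200 CPM, with a family ratio of 0.793. Ftl1-ps1, a copy of the ferritin light chain gene, averaged 422 CPM in lot 8 and 145 CPM in lot 11, and Ftl1 itself 1431 and 1127 CPM. Gene and copy together had a ratio of 1.46, with libraries at 1476 to 2315 and 1120 to 1401 CPM, so this sum did not overlap. The family of Hspb1 kept the direction of the gene, with a ratio of 0.107 when its copy was added. Rps13-ps2 matches Rps13 in all 453 aligned bases, and the family of Rps13 had a ratio of 1.03. Differences in Rps3a1, Rplp0, Rps13-ps2, mt-Nd3 and their copies are therefore uncertain as differences in transcription. For Ftl1 and Ftl1-ps1 the family sum was itself higher in lot 8, and how much of that belongs to gene or copy is uncertain.

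**Figure D4:**
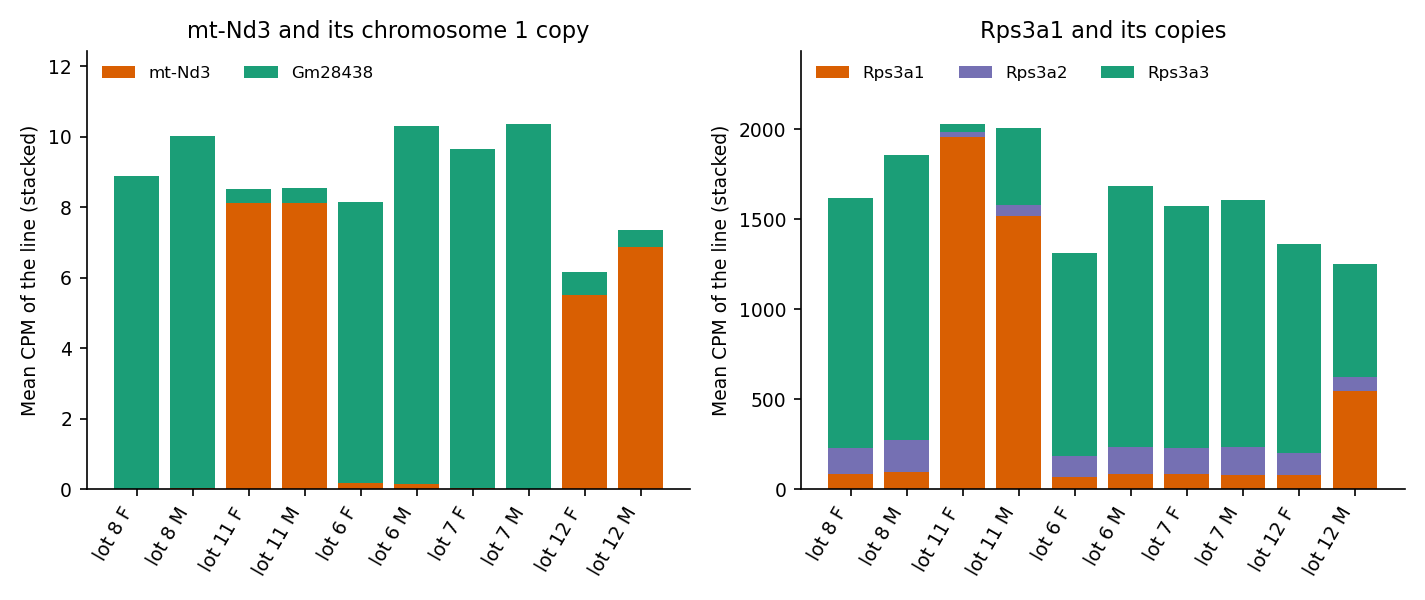
Mean CPM (of library totals) of each of the 10 lines, stacked by gene and copy, for mt-Nd3 with Gm28438 and for Rps3a1 with Rps3a2 and Rps3a3. Lot 8 lines hold their counts on Gm28438 and Rps3a3, lot 11 lines on mt-Nd3 and Rps3a1, and the stacks of both litters are of like height.

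Gnai1, the gene of an inhibitory G protein alpha subunit, has no copy in these families and was picked after its values were seen. It had 1 count in lot 8 and 688 in lot 11, a ratio of 0.00175 (exact 95% interval 4.42e-05 to 0.00977, counting error). In lot 11 it averaged 2.86 CPM in the female and 24.5 CPM in the male line, and lot 11 libraries ran down to 0 CPM, so the litters overlapped.

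The female and the male lines were also compared litter against litter, each by itself. Lot 8 differed from lot 11 in 1156 genes in the female lines (10.8%; 636 or 5.93% higher, 520 or 4.85% lower) and in 927 genes in the male lines (8.65%; 394 or 3.68% higher, 533 or 4.97% lower). Both contrasts passed for 323 genes, in the same direction for 212 of them (18.3% of the female and 22.9% of the male calls) and in opposite directions for 111 (1.04% of genes tested). Across 6826 genes whose mean log2 CPM was 3 or more, the female and the male difference had a Pearson correlation of 0.116 and a Spearman correlation of 0.129, given as a description, since genes are not independent. The difference itself, female minus male, passed for 753 genes (7.02%). Of the 752 kept genes, 198 passed in both sexes taken singly, 248 in the female lines alone, 175 in the male lines alone and 131 in neither. The female lines differed from the male lines of both litters in 1300 genes (12.1%), with 1 coefficient per line and without the rule on line means. On those same terms the litters differed in 1286 genes.

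**Figure D5:**
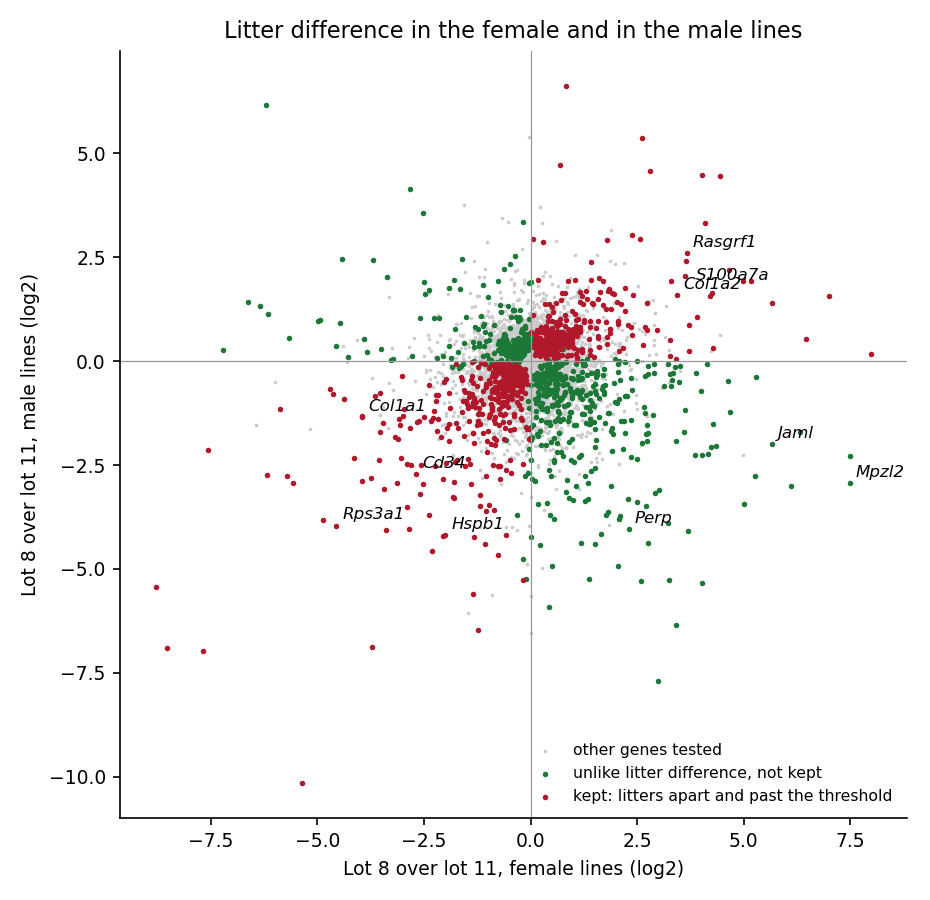
Log2 difference, lot 8 over lot 11, in the female lines (horizontal) and in the male lines (vertical); each point is 1 gene. Rasgrf1, S100a7a and Col1a2 lie high in both, Cd34, Hspb1 and Rps3a1 low in both, while Mpzl2, Jaml and Perp are higher in the female and lower in the male lines.

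The genes of smallest p with opposite signs were Mpzl2, Jaml, Hmga1, Loxl1 and Perp. Mpzl2, an adhesion protein gene of epithelia (chromosome 9, 45039799 to 45054015), had 56.3 to 69.6 CPM in lot 8 female libraries and 0 to 0.608 CPM in lot 11 female libraries, against 0 to 0.523 CPM in lot 8 male and 2.01 to 3.22 CPM in lot 11 male libraries. Its neighbour Jaml, a related junctional adhesion gene (45079183 to 45108534), had 169 to 215 CPM in the lot 8 female line and 0.85 to 7.45 CPM in the lot 11 female line, with 3.16 to 6.80 and 16.4 to 28.0 CPM in the male lines of lots 8 and 11. Both genes were thus high in 1 line of the 4, with log2 differences of 7.49 and 5.66 in the female and -2.93 and -2.0 in the male lines (adjusted p of the difference 1.49e-11 each, edgeR). Perp, a desmosome gene that p53 induces, averaged 42.0 ± 10.8 CPM in lot 8 female and 8.46 ± 1.43 CPM in lot 11 female libraries, and 2.90 ± 1.52 CPM in lot 8 male and 48.3 ± 11.5 CPM in lot 11 male libraries (SD, n = 4 each). Hmga1, a chromatin protein gene of growing cells, averaged 281 ± 34.0 CPM in lot 8 female and 79.9 ± 6.81 CPM in lot 11 female libraries, and 74.4 ± 9.69 and 175 ± 27.5 CPM in the male libraries of lots 8 and 11. Loxl1, which crosslinks elastin, averaged 126 ± 7.33 and 44.7 ± 7.00 CPM in the female and 40.1 ± 3.31 and 111 ± 8.74 CPM in the male lines of lots 8 and 11. For each of these 5 genes the 4 libraries of a line lay apart from those of the other line of its sex, and the litter difference over both sexes had an adjusted p of 0.128 to 0.983 (edgeR). The choice of the genes by smallest p and opposite signs made both likely.

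For some genes of NF-kB, of the IL-6 family and STAT3, and of MHC class I the litter difference was unlike in the female and the male lines. Of 13 NF-kB subunits and inhibitors 3 were higher in lot 8 in the female lines (Nfkbia, Relb and Nfkb2, against 5.93% of all genes) and 3 were lower in the male lines (Nfkbia, Relb and Rela, against 4.97%). The difference itself was unlike in the sexes for 3 of them, Nfkbia, Relb and Nfkb2, where 7.02% of all genes passed that test. Of 16 NF-kB targets 5 were unlike (31.2%), Nfkbia among them, with 3 higher and 1 lower in the female and 1 higher and 4 lower in the male lines. Of 16 STAT3 targets 0 were unlike, with 2 higher in the female lines and 3 higher and 1 lower in the male lines. The genes described next were picked after their values were seen. Nfkbia, which encodes the inhibitor that holds NF-kB in the cytoplasm and is itself an NF-kB target, had 64.6 to 78.2 CPM in lot 8 female and 43.5 to 50.4 CPM in lot 11 female libraries, with 34.9 to 49.4 CPM in lot 8 male and 53.1 to 83.7 CPM in lot 11 male libraries. The litters did not overlap within either sex, and lay in opposite order (log2 differences 0.61 ± 0.14 female and -0.68 ± 0.14 male; adjusted p of the difference 0.000138, edgeR). Relb, a subunit of the non-canonical pathway, averaged 15.3 ± 5.18 CPM in lot 8 female and 6.67 ± 2.63 CPM in lot 11 female libraries, with 3.39 ± 2.17 CPM in lot 8 male and 8.33 ± 2.63 CPM in lot 11 male libraries (SD, n = 4 each; adjusted p of the difference 0.00423, edgeR). Of 14 IL-6 family and STAT3 genes 3 were higher in the female lines (Socs2, Lif and Il11ra1) and 2 lower in the male lines (Socs2 and Il11ra1). Socs2, a feedback inhibitor of cytokine receptors, differed by 1.89 ± 0.38 in the female and -1.69 ± 0.39 in the male lines. Of 10 MHC class I genes 3 were higher in the female lines (H2-D1, Tapbp and B2m) and 2 lower in the male lines (H2-D1 and Tapbp). H2-D1, which encodes a class I heavy chain, had 25.1 to 34.4 CPM in lot 8 female and 8.50 to 15.1 CPM in lot 11 female libraries, with 7.62 to 11.9 CPM in lot 8 male and 13.97 to 24.0 CPM in lot 11 male libraries. Its litters too were apart within each sex and in opposite order. Each sex of a litter is 1 line, so sex and line cannot be told apart here.

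The 6 lines of lots 6, 7 and 12 were set beside both litters to see which side stood apart, in CPM scaled over all 36 libraries. Of the 752 kept genes, both lot 8 lines lay above or both below all 6 other lines in 213, whichever way the litters differed. Both lot 11 lines did so in 92. Among 23 genes named by rule these numbers were 11 and 4. The same numbers were not taken over all genes tested. The rule that kept the genes had already placed both lines of each litter on 1 side of the other litter. These numbers alone therefore do not show which litter stood apart. Rasgrf1 was at 48.7 and 42.4 CPM in the female and male lines of lot 8, against 0.572 to 18.4 CPM in the 6 other lines and 3.80 and 6.98 CPM in those of lot 11. Cd34 was lowest in lot 8, at 10.3 and 14.6 CPM, with 32.8 to 291 CPM in the 6 other lines and 66.3 and 95.9 CPM in lot 11. S100a7a was instead lowest in lot 11: both lot 8 lines, at 140.2 and 259 CPM, lay within the 68.0 to 262 CPM of the 6 other lines, and the lot 11 lines had 11.1 and 48.6 CPM. Acta2 ranged over the 6 other lines from 1331 to 14807 CPM, so the 1847 and 1998 CPM of lot 8 and the 4761 and 4210 CPM of lot 11 both fell inside their range.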

How the data were processed

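BRB-seq libraries were made from polyadenylated RNA, with sample barcodes and molecular identifiers. The authors deposited raw counts per Ensembl mouse gene, per the labels, and every value was whole. Tools named in the submitters' processing notes are STAR 2.7.6a, Subread 2.0.2 and cutadapt 2.10, with the build GRCm38. Whether identifiers were collapsed, how multi-mapping reads were treated and whether counting used strand are not given in the sources used here, and intervals and the floor of 3 counts reflect counting error alone. Of 46078 genes, 45229 matched GENCODE M21 by identifier, and the other 849 held 0.0295% of counts.

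Counts were fitted with edgeR 4.0.16 (filterByExpr with the line as group, TMM, glmQLFit, glmQLFTest) in R 4.3.3, on 16 libraries with sex as a block and lot as the tested term, and with 1 coefficient per line for each sex, for the difference between the sexes and for the sex contrast. P-values were adjusted by Benjamini-Hochberg over all genes tested. Fold changes are log2, lot 8 over lot 11. CPM are TMM-scaled, except Y-linked and Xist values and the families of copies, which use library totals. The alternatives were other scalings, filters, tools (DESeq2 1.42.0, limma 3.58.1), thinning, line sums, a replicate block and leaving out libraries. On simulated data for this comparison, 200 of 10719 genes were changed and 10461 genes were tested. Of the changed genes tested, the fit recovered 68.0% of 2-fold changes and 100% of 4-fold ones, with 10 false calls. The simulated lines of a litter did not differ from each other, so false calls due to line differences were not measured. Pairs of libraries of a line differed by a chi-square per degree of freedom of 5.47 to 17.1, and 0 were identical.

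Named genes were the 12 in each direction with the largest smaller-of-both differences, among protein-coding genes of mean log2 CPM of at least 3 whose libraries did not overlap, the 4 members of smallest p in each list, and the 5 of smallest p with opposite signs in the sexes. Values are given for part of the list members, and some items that these rules would name are not reported here. The members, lists and rules were chosen with earlier results of these data known. Lists are described by counts, shares and medians, set against the shares and the median of all genes tested. Promoters came from RefSeq (GRCm38.p6), matched by symbol, and transcripts from GENCODE M21. Tables and plots used Python 3.11.15, pandas 2.3.3, numpy 2.4.6, Biopython 1.88 and matplotlib 3.10.9.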

Additional observations from a re-analysis of the deposited data

Results flagged for a closer look

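In 408 sets of 4 libraries of a line, covering 96 genes and library measures, 23 held a library far from the other 3 by Dixon's test, and chance flags about 1 set in 20. Levels below are in CPM, with the range of the other 3 libraries after each value. In the lot 8 male line, replicate 1 stood apart in Ubash3b (32.3, others 14.1 to 16.9) and Cnn1 (8.60, others 13.3 to 13.6). Replicate 2 of that line stood apart in Jaml (3.16, others 6.55 to 6.80), Gpi1 (269, others 289 to 289.8) and mt-Nd3 (0.186, the others at 0). Replicate 3 did so in Loxl4 (20.6, others 9.77 to 10.8) and Vegfb (42.0, others 48.7 to 49.4), and replicate 4 in Vcam1 (52.1, others 41.8 to 43.2), Tgfb3 (9.07, others 4.09 to 4.30) and Cox4i1 (2089, others 2210.4 to 2231).

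In the lot 8 female line, replicate 4 stood apart in Mpzl2 (56.3, others 67.5 to 69.6), Dusp5 (24.7, others 42.3 to 44.6), Slc1a3 (0.173, the others at 0) and Nes (92.1, others 68.7 to 70.6). Replicate 2 did so in Otx2 (1.28, others 0 to 0.178) and replicate 3 in Gnai1 (0.178, the others at 0). In the lot 11 male line, replicate 4 stood apart in Cd34 (88.3, others 95.1 to 95.9) and Fosl1 (146, others 213 to 221), replicate 1 in Msx2 (4.61, others 2.78 to 2.90) and replicate 2 in Nupr1 (112, others 189 to 195). In the lot 11 female line, replicate 4 stood apart in Asns (135, others 111 to 114). The share of mitochondrial mRNA was low in lot 8 female replicate 4 (0.324%, others 0.608 to 0.641%) and in lot 11 male replicate 4 (0.333%, others 0.609 to 0.660%).

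The litter difference was unlike in the female and the male lines for 31 of the genes followed, by the edgeR test of that difference with adjusted p of 2.75e-15 to 0.0454. Each value is the female minus the male log2 difference, lot 8 over lot 11. Among genes higher in lot 8 it was 1.24 for S100a7a, 1.86 for Col1a2, 1.16 for Cgnl1, 0.58 for Axl, 0.81 for Rps3a2, 3.08 for Rps3a3 and 1.09 for Gm8730. Among genes lower in lot 8 it was above 0, with a greater fall in the male lines, for Hspb1 (2.18), Myl9 (1.55), Tpm2 (2.50), Otx2 (5.24) and Nupr1 (1.01). It was below 0, with a greater fall in the female lines, for Rps3a1 (-0.60), Fbln2 (-1.15), Cnn1 (-2.75), Col1a1 (-2.61), Msx2 (-2.65), Fgf5 (-5.42), Slc1a3 (-4.72), Prrx1 (-0.63) and Rplp0 (-1.01). With opposite signs in the sexes it was 10.4 for Mpzl2, 7.66 for Jaml, 3.05 for Hmga1, 2.95 for Loxl1, 6.34 for Perp, 1.29 for Nfkbia, 2.48 for Relb, 1.22 for Nfkb2, 3.58 for Socs2 and 2.12 for H2-D1.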

How the results depend on the processing

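The count of genes higher and lower in lot 8 depended on what was taken as a replicate: 367 and 385 with libraries, 4 and 5 with 4 line sums, 1 and 0 with 10 line sums, and 219 and 241 with all 36 libraries in 1 fit. The cause was not tested, beyond the loss of residual degrees of freedom by construction with line sums. The other scalings, filters, DESeq2, thinning, limma voom with a random line block, 1 coefficient per line and the set without the libraries numbered 4 gave 278 to 491 higher and 261 to 502 lower genes, all within 1.5 times. Leaving out 1 library gave 296 to 391 higher and 315 to 392 lower genes, 872 to 1192 genes in the female and 724 to 971 in the male lines, 617 to 781 unlike between the sexes and 1116 to 1354 for the sex contrast.

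With the replicate number as a block, 403 genes were higher and 393 lower, 709 of them shared with the 752 above, and the other counts were 1341 female, 1064 male, 970 unlike between the sexes and 1469 for sex. Residuals of libraries with the same number correlated at -0.037 to 0.274 over 24 pairs, 10 of them over 0.1 and all 6 pairs of number 4 among these, and 0 of 72 pairs of other numbers exceeded 0.1. Medians were 0.072 for the same number and -0.029 for other numbers, so same-numbered libraries shared some residual spread, most clearly those numbered 4. As not every pair passed 0.1, the main fit did not take the numbers as a pairing, and the counts with the block stand beside it. The block ended the call of Slc1a3 alone among the 96 genes followed.

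For these 96 genes 101 values were followed (5 genes have both a litter difference and one between the sexes), and 78 kept direction and side of the threshold in every setting run for them other than line sums (27 for 90 of the values, at least 24 for the rest, as the 10 differences between the sexes were not run on all 36 libraries, in limma voom or with 1 coefficient per line, and Cdh11 was filtered out as low in 2). Signs reversed 22 times, all in 3 litter differences that were near 0 and not called: Nfkbia (0.027 with thinned counts, 0.0039 without the libraries numbered 4, -0.10 to 0.077 without single libraries), Relb (-0.0089 with DESeq2, -0.031 with the replicate block, -0.043 with 1 coefficient per line, -0.17 to 0.24 without single libraries) and Socs2 (-0.14 to 0.45 without single libraries). The unlike differences of Nfkbia, Relb, Nfkb2, Socs2 and H2-D1 were all still past the threshold without any single library. The fit of all 36 libraries ended 17 calls, not all of them marked at their genes above. Limma voom ended 8 (Pdgfrb and those that follow, other than Gpi1), and leaving out single libraries 8 (Itgb1, Itga11, Gpi1, Rras2, Fosl1, Dusp5, Slc1a3 and Nes). All 23 genes named by rule held without any single library. Their rule had required that the libraries not overlap, so this is no separate support. Levels under 0.403 CPM rest on fewer than 3 counts in every library.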
